A study of Mus musculus with 6 samples.

Results

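A set of 10 genes that mark or control spermatogonia, the dividing germ cells at the base of the seminiferous tubule, were read in whole-testis RNA sequencing of C57BL/6 mice. They are Gfra1, Ret, Zbtb16, Id4, Nanos2, Nanos3, Kit, Sohlh1, Dmrt1 and Uchl1, chosen by symbol, and all 10 were found among the 24411 genes of the deposited tables. Age-matched animals with genotype MRP5-/- and MRP9-/- (3 libraries, labelled DKO for double knockout) were compared with wildtype animals (3 libraries, labelled WT). MRP5 and MRP9 are membrane transporters of the ABCC family, encoded by Abcc5 and Abcc12, and the series asks about their part in male fertility and in mitochondria. The labels do not give the animals' age or the design of the alleles, and the 3 libraries of a group are treated as separate animals on the strength of their labels alone.

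In the mouse testis a small pool of undifferentiated spermatogonia renews itself and gives rise to differentiating spermatogonia, which then enter meiosis. Renewal depends on GDNF, a growth factor from the tubule's supporting cells, which binds the co-receptor GFRA1 and signals through the receptor tyrosine kinase RET. Differentiation is driven by retinoic acid and is marked by the appearance of KIT, the receptor for the KIT ligand. Because whole testis was sequenced, fewer cells of a type and less RNA per cell cannot be told apart in any value below.

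SOHLH1 is a basic helix-loop-helix transcription factor of differentiating spermatogonia, a class of proteins that bind E-boxes (CANNTG). Kit is among the genes known to depend on it, and ID4 belongs to the inhibitors of this class, which pair with such factors and lack a DNA-binding region. The RefSeq promoter table for GRCm38.p6 (the mm10 assembly) held 7 of the 10 genes. The 250 bases before the annotated start of Sohlh1 and of Kit are shown. The pair was picked because the RNA of both genes was highest in WT replicate 2 and lowest in WT replicate 1. That pattern was not particular to them: Ret and Zbtb16 were also highest in WT replicate 2, and Id4 was also lowest in WT replicate 1. Whether SOHLH1 acts on Kit in these libraries was not tested. The stretches are written 5′ to 3′ on the gene's strand, with every CANNTG in capitals. The Sohlh1 stretch is chr2:25847249-25847498 (minus strand) and the Kit stretch is chr5:75574737-75574986 (plus strand).
Sohlh1: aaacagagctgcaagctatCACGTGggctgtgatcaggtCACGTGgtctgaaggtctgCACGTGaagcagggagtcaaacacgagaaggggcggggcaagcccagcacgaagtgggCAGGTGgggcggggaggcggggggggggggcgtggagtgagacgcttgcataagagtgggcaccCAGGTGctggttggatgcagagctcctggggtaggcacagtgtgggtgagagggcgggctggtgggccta
Kit: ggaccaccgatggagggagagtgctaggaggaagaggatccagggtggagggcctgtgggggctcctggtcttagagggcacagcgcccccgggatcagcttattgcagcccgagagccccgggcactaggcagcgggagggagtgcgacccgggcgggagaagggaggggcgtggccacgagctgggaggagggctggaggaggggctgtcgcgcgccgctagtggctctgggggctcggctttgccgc
The motif was searched on both strands, on which it reads the same. Sohlh1 held 5 matches, 3 of them CACGTG, at 231, 211 and 192 bases before the start. Kit held 0 matches in this window. Among all 27025 promoters of the table, 66.0% held at least 1 CANNTG in the same window and 6.05% held CACGTG. In the same set 1.18% held 5 or more CANNTG and 0.0666% (18 promoters) held 3 or more CACGTG. The cutoffs of 5 and 3 were set at the counts found in Sohlh1, so these shares are no test of it. Gfra1 held 3 CANNTG and Nanos3 held 2, and the windows of Id4, Nanos2 and Uchl1 held 0. These matches describe letters in a window and not bound sites.

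Depth was 42673615 to 67131103 expected counts in libraries labelled DKO and 26753721 to 31745969 in those labelled WT, so the groups did not overlap. The mean fragment length recovered from the tables did not overlap either, at 275 to 317 bases against 230 to 258 bases. Abcc12 was counted at 82.1, 82.4 and 72.6 CPM (counts scaled to library size) in libraries labelled DKO and 165, 158 and 158 CPM in those labelled WT. Abcc5, the other targeted gene, was counted at 17.0, 16.7 and 16.8 CPM against 10.5, 12.3 and 11.4 CPM. Abcc5 transcript was thus not lower but higher in the libraries labelled DKO (log2 fold change 0.56, edgeR quasi-likelihood test, adjusted p = 0.0225). Abcc12 was lower (log2 fold change -1.02, same test, adjusted p = 0.000307). The adjusted p was under 0.05 in 10 of 16 alternative fits for Abcc5 and in 16 of 16 for Abcc12. The transcript length of Abcc5, weighted by estimated transcript abundance, was 5405 to 5605 bases in libraries labelled DKO and 4831 to 5150 bases in those labelled WT. Its log2 fold change was 0.38 with an effective-length offset (edgeR adjusted p = 0.0333). On log2(TPM + 1) it was 0.27 (limma adjusted p = 0.107), where TPM is a level corrected for transcript length and library size. Groups are named by their labels throughout. Markers of spermatids summed to between 100610 and 117858 TPM in all 6 libraries, and those of spermatocytes to between 1099 and 1365 TPM. The defining germ cell markers of the labelled tissue were thus present.

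None of the 8 genes that passed the filter on low counts differed between the groups past the threshold. Fold changes of libraries labelled DKO over those labelled WT ran from 0.816-fold for Ret to 1.16-fold for Id4. Of these 8 genes, 0 were called (edgeR quasi-likelihood test, Benjamini-Hochberg adjusted p under 0.05 over all 17110 genes tested), against 10.8% of all genes tested. At an unadjusted p under 0.05 the count was 1 of 8 (Id4), against 31.7% of all genes. DESeq2 called 0 of the 7 to which it gave an adjusted p. It called 2921 of 21125 genes with any count, not all of which had an adjusted p. At an unadjusted DESeq2 p under 0.05 there was 1 of the 10 genes, beside 4936 of the 21125. The median log2 fold change (labelled DKO over labelled WT) of the 8 was -0.03, beside -0.0042 for all genes tested, and 4 of the 8 were above 0. The 95% intervals of the 8 fold changes lay between 0.595-fold and 1.32-fold.

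**Figure D1:**
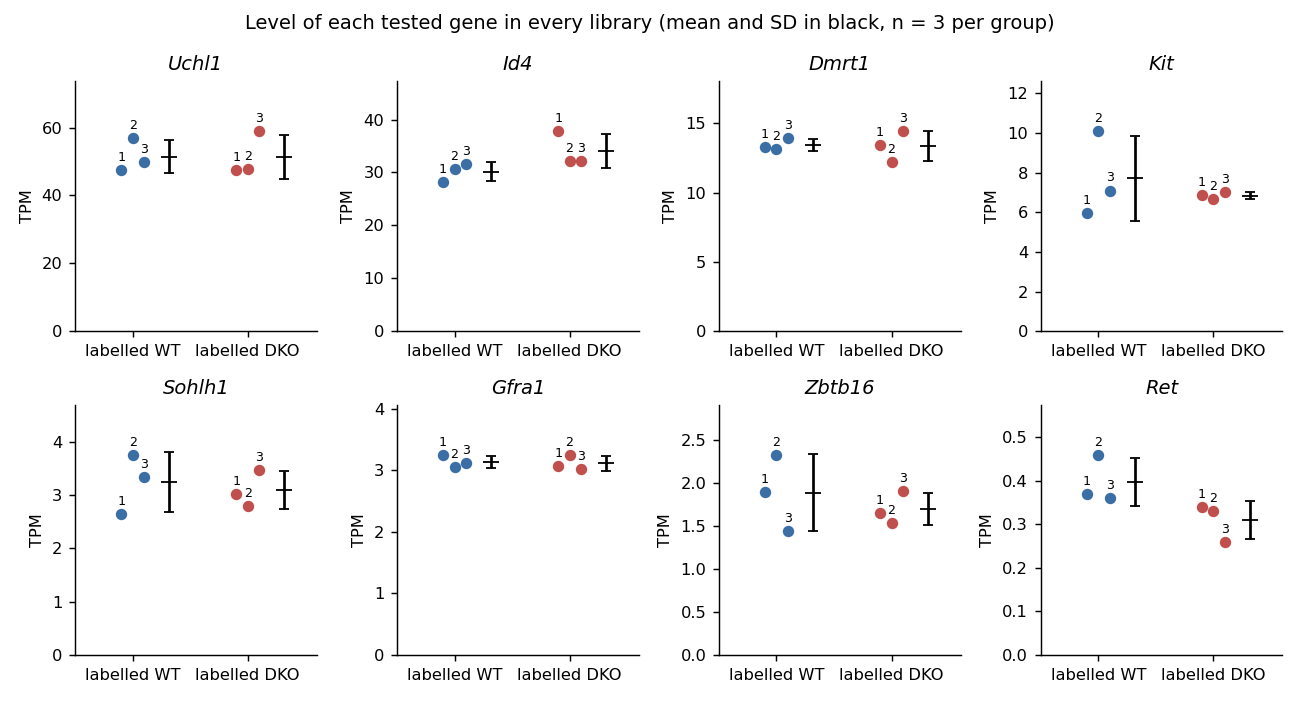
TPM (vertical axes, starting at 0) of the 8 tested genes in each library, with numbers naming the replicate, blue for labelled WT, red for labelled DKO, and the mean ± SD of 3 libraries in black. Kit spans 5.96 to 10.1 TPM among libraries labelled WT and 6.65 to 7.01 TPM among those labelled DKO.

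By TPM, the 10 genes spread over more than 2 orders of size. Over all 6 libraries the mean was 51.4 ± 5.20 TPM for Uchl1, 32.1 ± 3.18 for Id4, 13.4 ± 0.752 for Dmrt1, 7.28 ± 1.44 for Kit, 3.18 ± 0.427 for Sohlh1, 3.13 ± 0.0985 for Gfra1 and 1.80 ± 0.323 for Zbtb16 (SD, n = 6). Below these came Nanos3 at 0.363 ± 0.208 TPM, Ret at 0.353 ± 0.0650 TPM and Nanos2 at 0.123 ± 0.0965 TPM. Most neighbours in this order did not overlap in any pair of libraries. The exceptions were Sohlh1 and Gfra1, with Sohlh1 the higher in 3 of 6 libraries, and Nanos3 and Ret, with Nanos3 the higher in 4 of 6. The differentiation markers Kit and Sohlh1 stood in the middle of this order, and the scarcest were the RNA-binding proteins Nanos2 and Nanos3 and the receptor Ret.

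Gfra1 (chromosome 19, 58235581 to 58455946, GRCm38.p6), the GDNF co-receptor on the most primitive spermatogonia, varied little between libraries. It was present at 3.07, 3.25 and 3.02 TPM in libraries labelled DKO and at 3.24, 3.05 and 3.12 TPM in those labelled WT. The groups overlapped throughout, and all 6 libraries lay within 1.08-fold of one another. Its log2 fold change was 0.06 (SE 0.103; edgeR adjusted p = 0.747), with a 95% interval of 0.889-fold to 1.21-fold.

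Ret (chromosome 6, 118151748 to 118197744), the signalling receptor that GFRA1 presents GDNF to, was the tested gene with the lowest level and the widest interval. It had 0.34, 0.33 and 0.26 TPM in libraries labelled DKO and 0.37, 0.46 and 0.36 TPM in those labelled WT. The groups did not overlap in TPM, but they did in CPM, where the lowest library labelled WT had 1.58 CPM and the highest labelled DKO 1.59 CPM. Only 43 to 74 fragments per library were counted for Ret. Its log2 fold change was -0.29 (SE 0.208; edgeR adjusted p = 0.356), with a 95% interval of -0.75 to 0.16 on that scale. Leaving out each library in turn gave -0.39 to -0.12, the latter without DKO replicate 3. It was -0.14 after thinning every library to the smallest total and -0.55 with fragment length in the model. The TPM of Gfra1 was 9.03, 9.85 and 11.6 times that of Ret in libraries labelled DKO and 8.76, 6.63 and 8.67 times in those labelled WT, which was not tested.

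Zbtb16 (chromosome 9, 48651797 to 48836225) encodes PLZF, a zinc finger repressor needed to keep the stem cell pool. It had 1.65, 1.54 and 1.91 TPM in libraries labelled DKO and 1.90, 2.33 and 1.44 TPM in those labelled WT. Libraries labelled WT held both the highest and the lowest value, so the spread within that group was wider than the difference between groups. The log2 fold change was -0.08 (SE 0.150; edgeR adjusted p = 0.752; 95% interval 0.754-fold to 1.19-fold). Without WT replicate 2 it was 0.05.

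Id4 (chromosome 13, 48261116 to 48266028), whose protein marks spermatogonia with stem cell activity, came nearest to a difference. It had 37.83, 32.23 and 32.13 TPM in libraries labelled DKO and 28.16, 30.70 and 31.69 TPM in those labelled WT. Every library labelled DKO lay above every library labelled WT, as was the case in one direction or the other for 35.9% of all genes tested (in CPM). The gap between the nearest libraries was small, at 29.90 CPM in DKO replicate 3 against 29.89 CPM in WT replicate 3. The log2 fold change was 0.21 (SE 0.0880; edgeR quasi-likelihood test, adjusted p = 0.130), with a 95% interval of 1.01-fold to 1.32-fold. It was 0.12 without DKO replicate 1, the library with the highest level, and the adjusted p in the fits that left out a library lay between 0.0521 and 0.420. With the mean fragment length as a covariate the log2 fold change was -0.03. Id4 is also expressed outside germ cells, and its own relatives did not pass the threshold: Id1 was 3.86 TPM in libraries labelled DKO and 4.99 TPM in those labelled WT, Id2 was 7.34 against 6.06 TPM, and Id3 was 5.64 against 6.60 TPM.

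Nanos2 (chromosome 7, 18987524 to 18988962) and Nanos3 (chromosome 8, 84173733 to 84176552) encode zinc finger proteins that hold germ cells in an undifferentiated state by acting on messenger RNA. Neither passed the filter on low counts. Nanos2 was counted 3, 9 and 5 times in libraries labelled DKO and 0, 6 and 2 times in those labelled WT. Nanos3 was counted 6, 4 and 7 times against 0, 6 and 5 times. Both were at 0 in WT replicate 1, the shallowest library, where a count of 0 allows up to 0.112 CPM before normalization. Summed over a group, Nanos2 came to 17 counts (0.109 CPM before normalization) in libraries labelled DKO and 8 (0.0899 CPM before normalization) in those labelled WT, and Nanos3 to 17 (0.109 CPM before normalization) and 11 (0.124 CPM before normalization). Without the count filter, edgeR called neither, with a log2 fold change of 0.37 for Nanos2 (adjusted p = 0.814) and -0.09 for Nanos3 (adjusted p = 0.953), and DESeq2 gave neither an adjusted p. With 9 or fewer counts in any library, these values say little about either gene.

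Kit (chromosome 5, 75574987 to 75656722), the receptor that marks differentiating spermatogonia, was even among libraries labelled DKO and uneven among those labelled WT. It had 6.85, 6.65 and 7.01 TPM in the former and 5.96, 10.10 and 7.10 TPM in the latter. WT replicate 2 stood above all others, and the libraries labelled DKO lay inside the range of the others. The coefficient of variation of TPM was 2.64% in libraries labelled DKO and 27.7% in those labelled WT; this difference in spread was not tested. The log2 fold change was -0.10 (SE 0.132; edgeR adjusted p = 0.644; 95% interval 0.765-fold to 1.14-fold), and it was 0.09 without WT replicate 2.

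Sohlh1 (chromosome 2, 25842995 to 25847248), introduced above with its promoter, had 3.02, 2.79 and 3.48 TPM in libraries labelled DKO and 2.65, 3.76 and 3.35 TPM in those labelled WT. The groups overlapped, with the highest and the lowest library both labelled WT. Those were WT replicate 2 and WT replicate 1, the same libraries that were highest and lowest for Kit. The log2 fold change was -0.06 (SE 0.167; edgeR adjusted p = 0.849; 95% interval 0.747-fold to 1.24-fold), and it was 0.03 without WT replicate 2.

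Dmrt1 (chromosome 19, 25505618 to 25604328) encodes a transcription factor that holds spermatogonia back from premature meiosis and is also made by Sertoli cells. It had 13.42, 12.21 and 14.43 TPM in libraries labelled DKO and 13.26, 13.12 and 13.90 TPM in those labelled WT. The groups overlapped and the log2 fold change was 0.04 (SE 0.0856; edgeR adjusted p = 0.782; 95% interval 0.903-fold to 1.17-fold).

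Uchl1 (chromosome 5, 66676121 to 66687234), a ubiquitin hydrolase that marks spermatogonia, was the most abundant of the 10. It had 47.43, 47.69 and 58.98 TPM in libraries labelled DKO and 47.58, 56.95 and 49.76 TPM in those labelled WT. In each group 1 library stood above the other two, and the means were 51.4 ± 6.59 and 51.4 ± 4.90 TPM (SD, n = 3 each). The log2 fold change was 0.0043 (SE 0.0923; edgeR adjusted p = 0.980; 95% interval 0.872-fold to 1.15-fold), and it was 0.32 with fragment length in the model (adjusted p = 0.999).

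**Figure D2:**
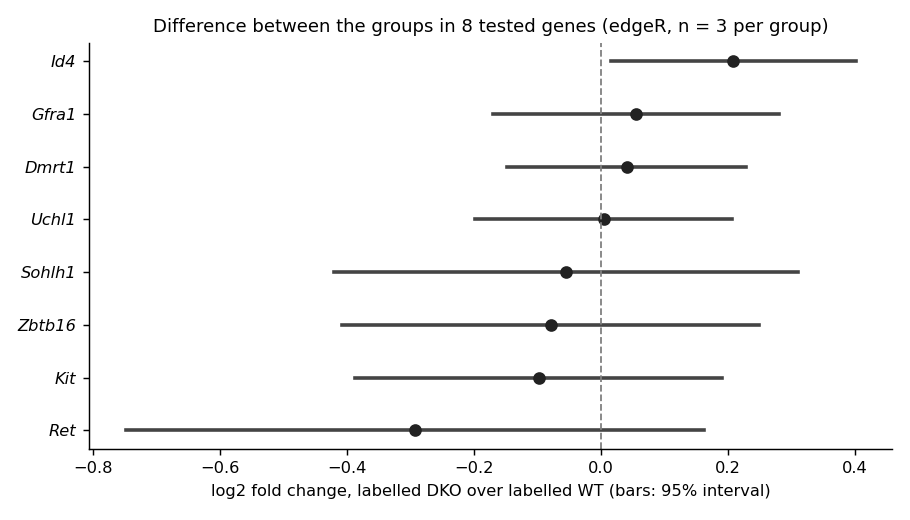
Log2 fold change (horizontal axis, labelled DKO over labelled WT) of the 8 tested genes with its 95% interval, from edgeR with 3 libraries per group. The interval of Id4 (0.02 to 0.40) lies just above 0 and the other 7 cross it, that of Ret being the widest (-0.75 to 0.16).

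The level of a differentiation marker was set against that of a stem cell marker as the ratio of Kit to Gfra1 in TPM. Kit is also made by Leydig cells, so in whole testis the ratio need not follow spermatogonia alone. The ratio was 2.23, 2.05 and 2.32 in libraries labelled DKO and 1.84, 3.31 and 2.28 in those labelled WT. The libraries labelled DKO fell inside the range of the others, with WT replicate 2 highest and WT replicate 1 lowest. On the log2 scale the mean ratio was 1.14 ± 0.0931 against 1.26 ± 0.429 (SD, n = 3 each), a difference of -0.13 (exact two-sided permutation test, p = 0.8, where 3 against 3 libraries allow no p below 0.1). Without WT replicate 2 the difference was 0.10.

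WT replicate 2 was the library with the highest TPM for 4 of the 8 tested genes (Ret, Zbtb16, Kit and Sohlh1) and the lowest for 0 of them. It was also the library with the highest summed level of markers of 5 somatic cell types. Leydig cell markers, from the steroid-producing cells between the tubules, summed to 3173 TPM there, against 1518 and 1990 TPM in the other libraries labelled WT and 885 to 1539 TPM in those labelled DKO. Insl3 alone gave 2575.5 TPM of the Leydig sum in WT replicate 2. Sertoli cell markers summed to 2736 TPM there, against 2188 and 2349 TPM in the other libraries labelled WT and 1755 to 2082 TPM in those labelled DKO. Of the Sertoli sum in WT replicate 2, Clu gave 1138.53 TPM and Defb19 983.56 TPM. Peritubular myoid markers came to 111 TPM there (64.3 to 91.7 TPM elsewhere), macrophage markers to 65.9 TPM (37.9 to 51.2 TPM elsewhere) and endothelial markers to 12.6 TPM (8.78 to 12.1 TPM elsewhere). The summed TPM of spermatid markers was lowest in that library, as were Acrv1, Spaca1, Tnp2, Prm1 and Prm2 taken singly. Catsper3, Tssk1, Tssk2, Tnp1 and Odf1 had their lowest TPM in other libraries. Not every somatic marker was highest in WT replicate 2. Star, Lhcgr, Wt1, Rhox5, Aard, Tsx, Fshr, Mrc1, Cd14, Pecam1, Kdr and Tek had their highest TPM in other libraries. Every marker on these lists was detected in every library. Kit is also made by Leydig cells, and the part of somatic cells in the levels of the 4 genes was not tested.

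**Figure D3:**
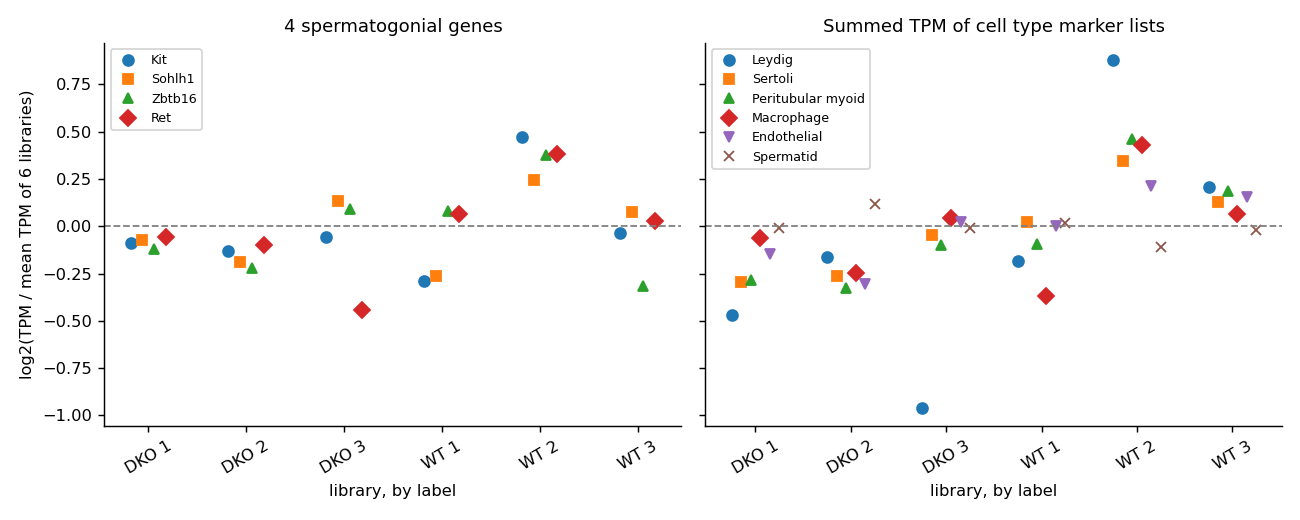
Log2 of the TPM in each library over the mean of the 6 libraries (vertical axis) for Kit, Sohlh1, Zbtb16 and Ret (left) and for the summed markers of 6 cell types (right), 1 point per gene or list. The 4 genes were drawn because WT 2 was their highest library, so their place there was fixed by the choice. All 5 somatic lists also lie above 0 and at their highest in WT 2, with Leydig markers at 3173 TPM. Of the tested genes not drawn, Gfra1, Id4 and Dmrt1 were at -0.04, -0.07 and -0.03 in WT 2, and Uchl1 at 0.15.

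Among all the marker lists, those of Sertoli cells had 4 of 13 genes called, all lower in libraries labelled DKO. Those of Leydig cells had 3 of 10, all lower, those of myoid cells 1 of 5, lower, and those of spermatocytes 2 of 10, both higher. DESeq2 called 5, 2, 3 and 2 in these lists, in that order, and limma-voom 4, 3, 1 and 1. The median log2 fold changes were -0.19, -0.48, -0.31 and 0.20, in the same order. Of all genes tested, 5.75% were called higher and 5.1% lower. Over all genes, only 11, 13 and 7 were called without DKO replicate 1, WT replicate 2 and WT replicate 3. With the fragment length as a covariate 1 was called. The marker lists were not counted in those fits. Spermatid, macrophage and endothelial lists had 0 of 10, 0 of 7 and 0 of 5 genes called by edgeR. At an unadjusted edgeR p under 0.05 they had 0, 2 and 1, against 31.7% of all genes. DESeq2 and limma-voom also called 0 genes in each of these 3 lists.

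Genes related to the 10 were read from 7 lists. Beside markers of spermatogonia these hold pathway genes, niche factors, paralogs and partner proteins, not all of which are particular to spermatogonia. Together the lists hold 112 tested genes besides the 10. Of these, 11 were called (5 higher and 6 lower in libraries labelled DKO), against 10.8% of all genes tested, and their median log2 fold change was -0.03. No list gene was called without DKO replicate 1, without WT replicate 2 or without WT replicate 3, where 11, 13 and 7 of all genes were. Without DKO replicate 2, 3 of 111 list genes were called, beside 655 of all 17116 genes tested in that fit. Without DKO replicate 3, 20 of 111 were called, beside 3029 of all 17089. Without WT replicate 1, 9 of 113 were called, beside 2037 of all 17447.

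**Figure D4:**
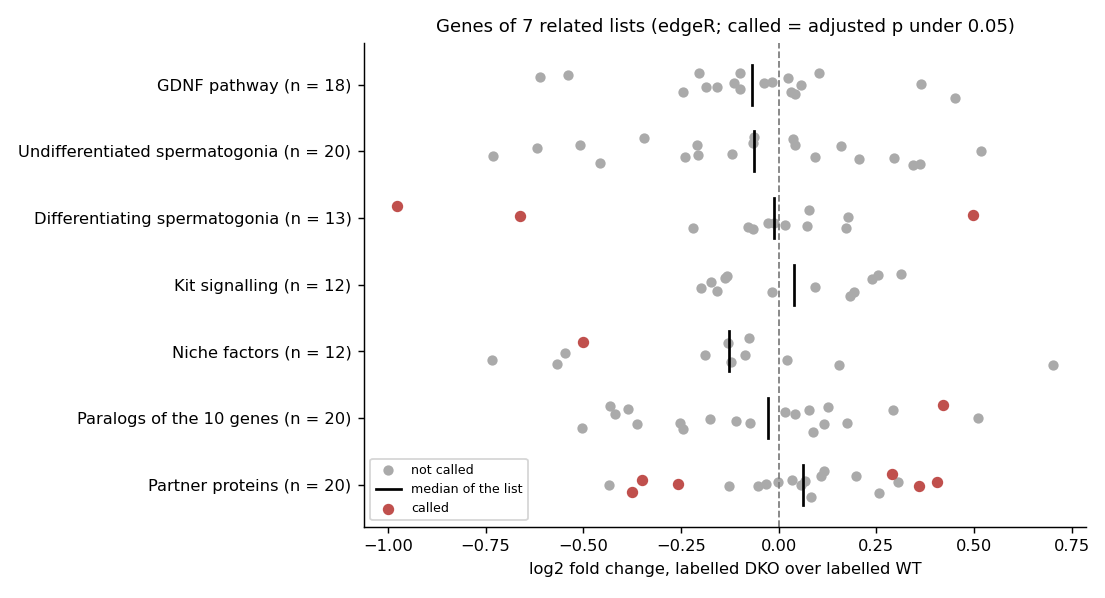
Log2 fold change (horizontal axis, labelled DKO over labelled WT) of every tested gene of 7 lists, with called genes in red, the others in grey and the median of each list as a black bar; a gene in more than 1 list is drawn in each. The medians lie between -0.13 and 0.06.

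In the GDNF pathway edgeR called 0 of 18 tested genes, against 10.8% of all genes tested. At an unadjusted edgeR p under 0.05 there were 2, against 31.7% of all genes. The median log2 fold change was -0.07. On this list limma-voom called 0 and DESeq2 called 1. Gdnf itself, the ligand, was at 0.777 TPM in libraries labelled DKO and 0.753 TPM in those labelled WT. Etv5 and Bcl6b, transcription factors that GDNF induces in stem cells, were at 10.4 against 11.7 TPM and at 2.18 against 2.46 TPM. The gene with the smallest p was Yes1, a SRC family kinase, at 31.8 ± 6.76 CPM against 23.2 ± 2.33 CPM (SD, n = 3 each; log2 fold change 0.45; edgeR adjusted p = 0.0564). It passed the threshold in 4 of the 16 alternative fits, and its log2 fold change was -0.20 with the fragment length as a covariate.

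Among other markers of undifferentiated spermatogonia edgeR called 0 of 20 tested genes, against 10.8% of all genes tested. At an unadjusted edgeR p under 0.05 there were 2, against 31.7% of all genes. The median was -0.06. On this list limma-voom called 0 and DESeq2 called 1. Sall4, a zinc finger partner of PLZF, was at 0.867 TPM in libraries labelled DKO and 1.06 TPM in those labelled WT. Foxo1, which stem cell maintenance requires, was at 2.45 against 2.68 TPM, and the RNA-binding protein gene Lin28a at 2.16 against 2.19 TPM. Bmi1, a Polycomb gene active in many cells, had the smallest p, at 162 ± 21.7 CPM against 126 ± 13.2 CPM (SD, n = 3 each; log2 fold change 0.36; edgeR adjusted p = 0.0502). It passed the threshold in 5 of the 16 alternative fits and was -0.08 with the fragment length as a covariate.

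Genes of differentiating spermatogonia had 3 of 13 called, 1 higher and 2 lower, against 10.8% of all genes tested, with a median of -0.01. On this list limma-voom called 2 and DESeq2 called 2. Crabp1, a carrier of retinoic acid, was at 2.33, 2.79 and 3.05 CPM in libraries labelled DKO and at 4.10, 4.54 and 4.36 CPM in those labelled WT. All libraries labelled DKO lay below all labelled WT, and Crabp1 fell by 0.66 on the log2 scale (SE 0.144; edgeR adjusted p = 0.0287). Lhx8, a homeobox gene, was at 0.336, 0.295 and 0.281 CPM against 0.683, 0.537 and 0.582 CPM and fell by 0.98 on the log2 scale (SE 0.284; edgeR adjusted p = 0.0495). These values rest on low counts, at 14, 13 and 19 in libraries labelled DKO and 18, 18 and 18 in those labelled WT. The depth of the groups did not overlap. Elavl2, which encodes an RNA-binding protein, was at 5.24, 5.39 and 4.41 CPM against 4.10, 3.28 and 3.26 CPM and rose by 0.50 on the log2 scale (SE 0.142; edgeR adjusted p = 0.0478). Lhx8 passed the threshold in 4 of the 14 alternative fits that gave it an adjusted p, Elavl2 in 6 of 16 and Crabp1 in 10 of 16. Among the 10 genes of this list that were not called, Sohlh2, the partner of SOHLH1, was at 7.13 TPM in libraries labelled DKO and 7.30 TPM in those labelled WT, Stra8, which retinoic acid induces before meiosis, at 11.0 against 9.91 TPM, and the retinoic acid receptor gene Rarg at 2.36 against 2.51 TPM.

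In KIT signalling edgeR called 0 of 12 tested genes, against 10.8% of all genes tested. At an unadjusted edgeR p under 0.05 there were 4, against 31.7% of all genes. The median was 0.04. On this list limma-voom called 0 and DESeq2 called 1. Kitl, the ligand of KIT and a product of Sertoli cells, had the smallest p. It was at 27.5, 23.3 and 22.8 CPM in libraries labelled DKO and at 17.4, 21.0 and 20.8 CPM in those labelled WT. The groups did not overlap in CPM but did in TPM, where DKO replicate 2 had 6.22 TPM and WT replicate 2 had 6.37 TPM. The log2 fold change was 0.31 (SE 0.104; edgeR adjusted p = 0.0683). It passed the threshold with DESeq2 (adjusted p = 0.0400) and without DKO replicate 3 (edgeR adjusted p = 0.0384), among 16 alternative fits.

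Among factors of the niche, the signals that neighbouring cells give to spermatogonia, 1 of 12 tested genes was called. The share of all genes tested was 10.8%. The median was -0.13, and on this list limma-voom called 1 and DESeq2 called 2. Wnt6 was at 8.60, 10.9 and 11.0 CPM in libraries labelled DKO and at 11.9, 17.3 and 13.9 CPM in those labelled WT, and fell by 0.50 on the log2 scale (SE 0.141; edgeR adjusted p = 0.0458). It was highest in WT replicate 2, without which the log2 fold change was -0.35 (adjusted p = 0.163), and with the fragment length as a covariate it was 0.09. Cxcl12, a chemokine for germ cells, was at 8.09 TPM against 12.3 TPM and did not pass the threshold (edgeR adjusted p = 0.0515). Cyp26b1, which breaks down retinoic acid, was at 12.9 against 15.5 TPM (adjusted p = 0.167).

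Of 20 tested paralogs of the 10 genes, 1 was called, against 10.8% of all genes tested. On this list limma-voom called 2 and DESeq2 called 3. Uchl5, a proteasome-bound relative of Uchl1, was at 59.4, 50.5 and 51.8 CPM in libraries labelled DKO and at 42.0, 37.4 and 41.5 CPM in those labelled WT, and rose by 0.42 on the log2 scale (SE 0.0842; edgeR adjusted p = 0.0263). Uchl5 passed the threshold in 12 of the 16 alternative fits. Uchl3 was at 214 TPM in libraries labelled DKO and 195 TPM in those labelled WT (adjusted p = 0.257). Gfra4 was at 15.5 against 21.3 TPM (adjusted p = 0.0502), and Dmrtb1, a relative of Dmrt1 that acts as spermatogonia leave mitosis, at 648 against 631 TPM (adjusted p = 0.508).

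Proteins that work with the 10 had 6 of 20 genes called, 3 higher and 3 lower, against 10.8% of all genes tested, with a median of 0.06. On this list limma-voom called 6 and DESeq2 called 7. The list includes subunits of the CCR4-NOT deadenylase, which NANOS2 recruits to its target messages. Of these, Cnot7 rose by 0.40 (SE 0.0983; edgeR adjusted p = 0.0349), Cnot6 rose by 0.36 (SE 0.0941; adjusted p = 0.0391) and Cnot2 rose by 0.29 (adjusted p = 0.0409), while Cnot3 fell by 0.26 (adjusted p = 0.0459), all on the log2 scale. Cnot7 passed the threshold in 8 and Cnot6 in 7 of the 16 alternative fits, and with fragment length in the model their log2 fold changes were 0.04 and -0.02. Cnot1, the scaffold, was at 88.6 TPM in libraries labelled DKO and 89.7 TPM in those labelled WT. Tcf3, an E-protein of the kind that ID4 binds, fell by 0.38 (SE 0.0895; edgeR adjusted p = 0.0339), with 14.2, 15.7 and 16.4 CPM in libraries labelled DKO and 19.7, 19.3 and 21.2 CPM in those labelled WT. Tcf3 passed the threshold in 10 of the 16 alternative fits. Exons of Cnot7 overlap those of Zdhhc2 on the other strand.

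For 3 of the 10 genes the tables list several transcripts, and their lengths, weighted by estimated transcript abundance, are a readout apart from the counts. Kit ranged from 5169 to 5172 bases in libraries labelled DKO and from 5169 to 5172 bases in those labelled WT. Gfra1 ranged from 4434 to 4490 bases against 4424 to 4522 bases, and Ret from 6666 to 6856 bases against 6657 to 6896 bases. The groups overlapped for all 3, with no test made. All counts of the 10 genes were whole numbers in all 6 libraries. In GENCODE M21, exons of Gfra1, Id4, Nanos2 and Uchl1 overlap noncoding genes on the opposite strand (Gm16277 at Gfra1, A330033J07Rik and Gm49291 at Id4, Gm45058 at Nanos2, Uchl1os at Uchl1). The strand setting of the counting is not given in the sources used here, so reads of these pairs may not have been told apart.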

How the data were processed

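Testis RNA of 3 animals labelled DKO and 3 labelled WT was sequenced, and groups were taken from the genotype label. The deposited tables are gene-level RSEM output (with RefSeq transcript identifiers), 1 per library; the submitters' processing notes name STAR 2.7.0f, RSEM 1.2.31, DESeq2 1.12.3 and the build mm10. The authors deposited expected counts (estimated counts, 92.9% to 93.4% whole), TPM and FPKM, so named per the file headers; the deposited FPKM served only as an alternative for the ratio of Kit to Gfra1.

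Expected counts were rounded and filtered by filterByExpr, then scaled by TMM and tested with the quasi-likelihood test of edgeR 4.0.16 in R 4.3.3, with genotype as the only term; the script was tested on simulated data. The standard error is the log2 fold change over the square root of F. Alternatives were other scaling, filters (none, mean count of at least 50), DESeq2 1.42.0, limma 3.58.1 (voom, log2(TPM + 1), log2(TPM + 0.1)), an effective-length offset, fragment length (from genes over 3000 bases) as a covariate and leaving out each library. Thinning to the smallest total was added after seeing the data. The 10 genes and all lists were chosen with earlier results of these data known. From each list the called genes with the smallest p, at most 4, were named, or the 1 gene with the smallest p; the other list genes printed, with Cnot2 and Cnot3, were chosen after their values were seen. One called gene of the partner proteins is not reported here. One listed symbol, Gpr125, matched no gene. The limit at a count of 0 is 3 counts and covers counting error only; intervals are at 95%. P-values measure the spread between these libraries.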

Additional observations from a re-analysis of the deposited data

How the results depend on the processing

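The 16 alternative fits gave 127 adjusted p values for the 8 tested genes, all from the same 6 libraries or a part of them. Of these values 0 were under 0.05, and the smallest was 0.0521 (edgeR, Id4 without DKO replicate 3). Signs did turn, in genes near 0 and in Id4, Yes1, Bmi1, Wnt6 and Cnot6, which were not, and the cause was not tested. With library fragment length added to the model, the log2 fold changes were -0.11 for Gfra1, -0.55 for Ret, 0.32 for Uchl1, 0.12 for Zbtb16, -0.0345 for Id4, 0.20 for Kit, 0.25 for Sohlh1, -0.0079 for Dmrt1, -0.20 for Yes1, -0.0807 for Bmi1, 0.0921 for Wnt6 and -0.0249 for Cnot6; that covariate does not overlap between the groups. On log2(TPM + 1) they were -0.0083 for Gfra1, -0.0099 for Dmrt1 and -0.0050 for Uchl1, and on log2(TPM + 0.1) -0.0107, -0.0107 and -0.0051. Uchl1 was -0.0045 with a mean count of at least 50 and -0.0784 after thinning. Leaving out each library gave ranges of -0.0081 to 0.11 for Gfra1, -0.24 to 0.0547 for Zbtb16, -0.24 to 0.0947 for Kit, -0.17 to 0.0268 for Sohlh1, -0.0143 to 0.0691 for Dmrt1, -0.0881 to 0.0512 for Uchl1 and -0.32 to 0.10 for the log2 ratio of Kit to Gfra1. Over all genes, 1856 were called (984 higher, 872 lower). DESeq2 called 2921, limma 735 on log2(TPM + 1) (279 higher, 456 lower) and 947 on log2(TPM + 0.1) (370 higher, 577 lower), the covariate fit 1, and the fits without a library 7 to 3029. Of the list genes 11 were called, against 17, 4, 6 and 0 in those 4 fits and 0 to 20 without a library; in the covariate fit 5 list genes had an unadjusted p under 0.05. Low counts limit Nanos2, Nanos3, Ret and Lhx8. After thinning, Ret was -0.14 and Zbtb16 -0.30. No paired analysis was possible because the labels number no replicates; the numbers used here follow the order of the records, only name the libraries and pair none of them.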
